A study of Mus musculus with 12 samples.

Results

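Messenger RNA was compared between CD8 T cells labelled Ezh2 knockout (KO) and wild-type (WT) at day 3 of culture, with 3 libraries per genotype. These 6 libraries were chosen by their titles from the 12 of the series, and the other 6 are the same genotypes at day 5. The cells came from spleens of female C57BL/6 mice and were naive CD8 cells, low in CD44, when the cultures began. Both genotypes were stimulated for 2 days with plate-bound antibody to TCR-β at 3 µg/ml and antibody to CD28 at 1 µg/ml in the presence of IL-2 at 10 ng/ml, and were then kept in IL-2 for 1 day. How Ezh2 was deleted, which exons were lost, and whether the 3 libraries of a group came from separate mice are not given in the labels used here, so p-values measure the spread between these libraries. Of 25655 genes listed, 10765 had at least 1 CPM (reads per 1000000 reads of a library) in at least 3 of the 6 libraries and were tested. The remaining 14890 were not. The series as a whole asks, by its title, about Ezh2 in the formation of short-lived effector cells and in immunity to tumours.

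Ezh2 is a methyltransferase of Polycomb repressive complex 2 (PRC2), which places methyl groups on lysine 27 of histone H3 and thereby helps to keep genes silent. Its partners Suz12 and Eed are needed for activity, Jarid2 and Mtf2 help to bring the complex to chromatin, and Ezh1 is a weaker enzyme of the same kind. The complex is best known for silencing developmental transcription factors and the cell cycle inhibitors of the Cdkn2a locus. In CD8 T cells, stimulation through the T cell receptor starts growth under the factor Myc, rapid division and the build-up of cytotoxic granules, and genes of memory cells and of effector cells are then switched on or off as the cells differentiate.

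The 6 libraries held between 1688313 and 2011247 gene-assigned reads, and 11257 to 11973 genes had a read. A single read was worth 0.497 to 0.592 CPM, and a gene with 0 reads in a group could have been present at up to 0.571 CPM in WT or 0.527 CPM in KO (3 reads over the 3 libraries, for counting error only). Each read comes from a transcript's 3′ end, so a value does not grow with transcript length. T cell identity was clear in every library, with summed CPM of 10 CD8 T cell markers between 2147 and 2267 in WT and between 1642 and 1881 in KO. Of 7 tested 3 were lower in KO and 0 higher (median log2 fold change -0.11). Cd4 was read at no more than 1.13 CPM. The whole list of 6 CD4 T cell markers summed to 1086 to 1145 CPM in WT and 1341 to 1432 CPM in KO (4 tested, 1 higher and 2 lower). Most of that sum was Il2ra, which activated CD8 cells express too. The 8 NK cell markers summed to 1100 to 1110 CPM in WT and 1145 to 1293 CPM in KO, most of it Il2rb, which CD8 T cells also express, with 5 tested and 2 higher (Eomes and Fcer1g). Several defining markers of other cells were at 0: Ms4a1, Ncr1, Adgre1, Cd14, C1qa, Klf1, Cdh5 and Pdgfra had no read. Other members of such lists were read. The 10 neutrophil markers summed to 0 to 1.18 CPM in WT and 3.48 to 6.49 CPM in KO (1 tested, 0 called). The 8 mast and basophil markers summed to 1.66 to 2.96 CPM in WT and 2.73 to 6.96 CPM in KO (2 tested, 1 higher). The 17 monocyte and macrophage markers summed to 19.5 to 26.1 CPM in WT and 12.6 to 25.9 CPM in KO (3 tested, 0 called). Of 11 erythroid and platelet markers 3 were tested and 2 were higher in KO, with a summed level of 5.33 to 17.2 CPM in WT and 16.4 to 58.0 CPM in KO. The 2 were the haemoglobin genes Hba-a1 and Hba-a2, and without KO library 3 Hba-a2 was not called (adjusted p = 0.137). In bulk RNA, fewer cells of a type and less RNA per cell cannot be told apart.

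The targeted gene itself was read at similar levels in both genotypes. Ezh2 stood at 357, 374 and 409 CPM in WT and 377, 334 and 311 CPM in KO (log2 fold change -0.16 ± 0.07, adjusted p = 0.126), with overlapping groups. Without KO library 1 the adjusted p was 0.0375. Tags from the 3′ end do not test a deletion elsewhere in the gene, so these values do not check the genotype. The remaining values in this account are given in the same order, libraries 1, 2 and 3 of each genotype, and means carry the SD over n = 3 libraries.

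Between the genotypes 1428 genes were higher in KO and 1274 were lower at an adjusted p below 0.05 (limma on log2(CPM + 1), Benjamini-Hochberg over the 10765 genes). These are 13.3% and 11.8% of the genes tested, the background against which each gene group below is to be read. The share lower rose with level, to 28.6% at a mean of 100 to 300 CPM and 35.9% above that. For lists of abundant genes 11.8% is therefore too low a background. The rises were larger than the falls. The median log2 fold change was 0.93 among the higher genes and -0.45 among the lower ones, and the median over all genes tested was -0.02. At least 2-fold differences numbered 668 among the higher genes and 110 among the lower, and at least 4-fold differences 159 and 5. The plot of change against level shows that the kinds of gene differed too. Below a mean of 3 CPM 12.5% of genes were higher and 1.49% lower, whereas at 300 CPM or more 18.6% were higher and 35.9% lower, with a median log2 fold change of -0.27 among the latter. Genes in the higher set took 15.3% to 15.5% of all reads in the WT libraries and 22.5% to 24% in the KO libraries, and those in the lower set fell from between 33.4% and 33.7% to between 26.6% and 27.3%. All 3 KO libraries lay above all 3 WT libraries for 2091 genes (19.4% of those tested) and below them for 2149 (20%).

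**Figure D1:**
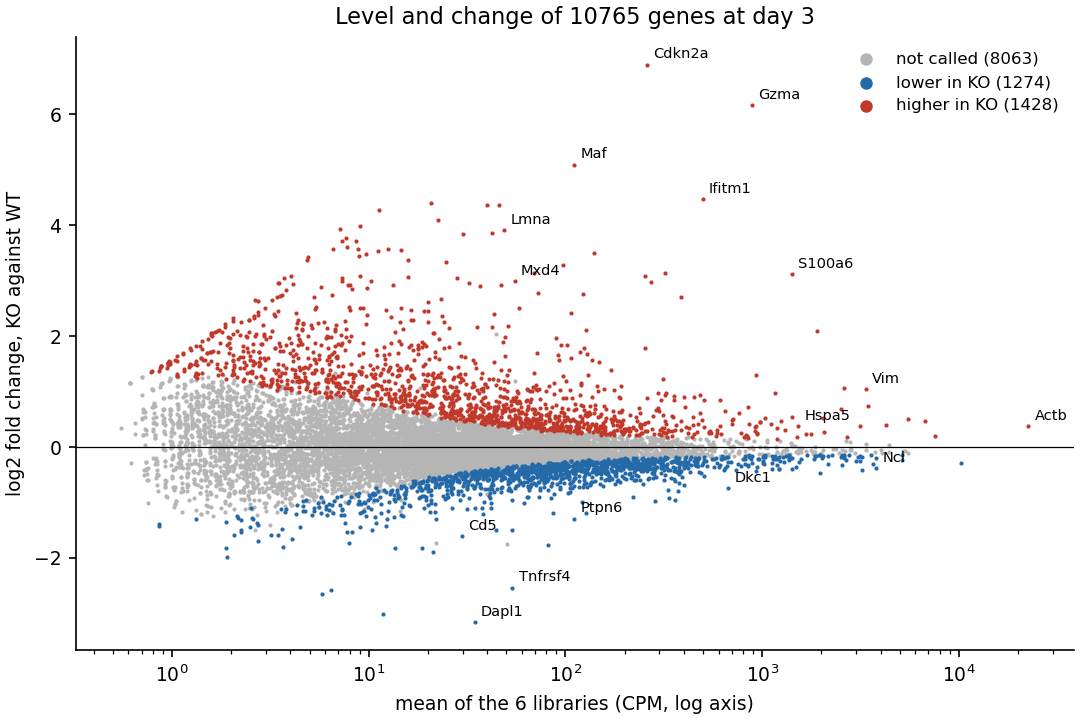
Each point is a gene tested, placed by its mean level over the 6 libraries (CPM, log axis) and its log2 fold change, KO against WT; red and blue points passed an adjusted p of 0.05. The higher genes (1428) spread over all levels up to a log2 fold change of 6.90 for Cdkn2a, while the lower genes (1274), with a median of -0.45, crowd at high levels.

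Absent or nearly absent transcripts in WT made up part of the higher set. Of the 1428 higher genes 50 had 0 reads over the 3 WT libraries and 92 had 1 to 3, and such genes enter the test only through their KO level. The reverse case was rare, with 2 lower genes at 0 KO reads and 4 at 1 to 3. Counts of small changes at high levels depended on how the spread was moderated: with 1 common prior spread for all genes in place of one that follows the level, 947 genes were higher and 433 lower, and DESeq2 on the recovered reads gave 927 and 577. Where such a setting moves the count of a gene group by over 1.5 times, its count is given as "without the level trend" or "by DESeq2".

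Genes with the largest changes had fewer CpG around their starts. RefSeq lists a window from 250 bases before to 50 bases after the start on GRCm38.p6 for 8673 of the genes tested, and the first window per gene was used. The median window held 21 CpG (a C followed by a G) over all genes tested, 21 in the higher and 23 in the lower set, but 19 in the 513 genes higher by at least 2-fold and 12 in the 124 higher by at least 4-fold. Large falls showed the same, with a median of 15 CpG in the 90 genes lower by at least 2-fold. Windows with under 5 CpG made up 6.31% of all, 11.3% of the higher, 3.90% of the lower and 21.8% of the genes higher by at least 4-fold. The order was the same at low and at high levels: the median was 18 CpG for all genes under a mean of 10 CPM and 13 for those of them higher by at least 4-fold, and 23 and 12 at 10 CPM or more. Among windows with 0 to 4 CpG 23% of genes were higher in KO, against 10.4% at 20 to 24 CpG and 15.9% at 35 or more, so the share was raised at both ends of the scale. The cytotoxic genes described below had a median of 5.5 CpG over 24 windows, and the genes of the stress factor ATF4 and the unfolded protein response 25 over 32.

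**Figure D2:**
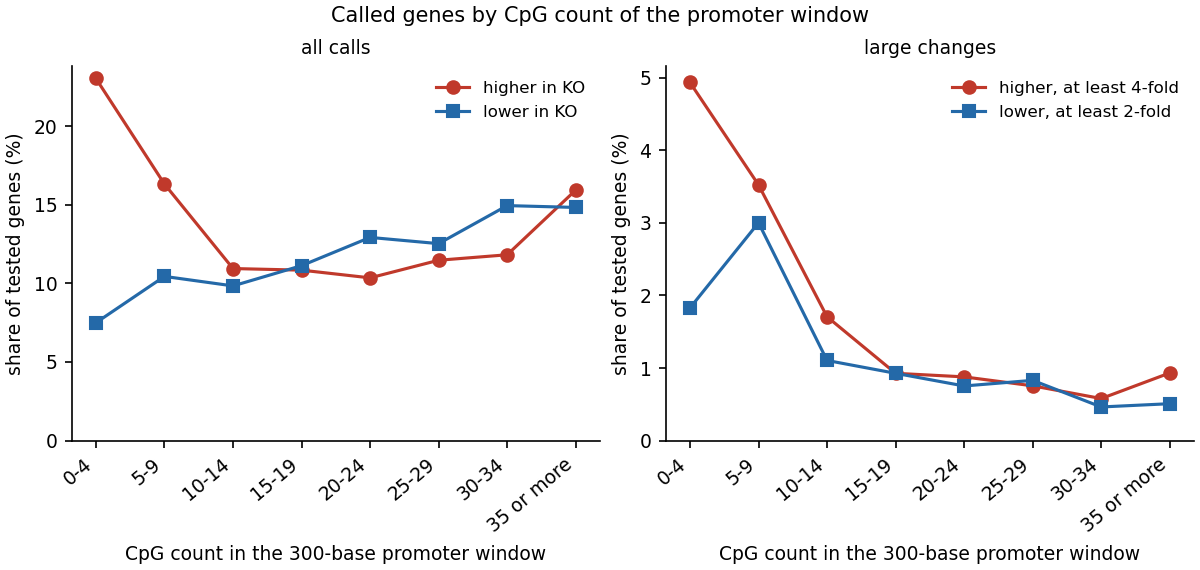
The share of tested genes that were higher or lower in KO is plotted by the number of CpG in the 300-base RefSeq window of each gene, for all calls on the left and for large changes on the right (8673 genes). The share higher fell from 23% at 0 to 4 CpG to 10.4% at 20 to 24 and stood at 15.9% at 35 or more, while the share lower went from 7.50% to 14.8%; changes of at least 4-fold upward and 2-fold downward were both most frequent below 10 CpG.

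Both ends of that range occur among the largest rises, shown here with each CpG in capitals. Cdkn2a (the cell cycle inhibitor locus) and Twist1 (a developmental transcription factor), long known as Polycomb targets, have 45 and 27 CpG, and Gzma and Prf1 (granzyme A and perforin, the killing proteins of the granule) have 5 each. All are 5′ to 3′ along the gene, from RefSeq on GRCm38.p6, for Cdkn2a the first of 2 windows listed.
Cdkn2a (chr4:89294570-89294869, minus strand): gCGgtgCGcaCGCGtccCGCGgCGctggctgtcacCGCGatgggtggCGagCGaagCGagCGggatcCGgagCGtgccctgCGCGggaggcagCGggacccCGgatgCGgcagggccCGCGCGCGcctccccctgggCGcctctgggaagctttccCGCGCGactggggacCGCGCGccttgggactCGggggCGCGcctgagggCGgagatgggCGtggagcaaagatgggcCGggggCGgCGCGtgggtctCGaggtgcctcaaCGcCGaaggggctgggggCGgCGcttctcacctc
Twist1 (chr12:33957421-33957720, plus strand): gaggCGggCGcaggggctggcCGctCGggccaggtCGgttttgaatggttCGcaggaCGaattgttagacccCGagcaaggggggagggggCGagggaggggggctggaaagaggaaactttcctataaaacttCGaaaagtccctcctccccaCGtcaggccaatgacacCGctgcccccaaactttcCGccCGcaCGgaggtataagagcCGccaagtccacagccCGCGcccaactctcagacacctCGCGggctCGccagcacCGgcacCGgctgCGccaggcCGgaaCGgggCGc
Gzma (chr13:113100932-113101231, minus strand): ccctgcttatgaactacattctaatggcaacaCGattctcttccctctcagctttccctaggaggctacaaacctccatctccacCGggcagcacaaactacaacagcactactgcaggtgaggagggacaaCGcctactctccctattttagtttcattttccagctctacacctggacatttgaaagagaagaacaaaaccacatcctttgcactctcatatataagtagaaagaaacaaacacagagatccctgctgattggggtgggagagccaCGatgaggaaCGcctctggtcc
Prf1 (chr10:61297586-61297885, plus strand): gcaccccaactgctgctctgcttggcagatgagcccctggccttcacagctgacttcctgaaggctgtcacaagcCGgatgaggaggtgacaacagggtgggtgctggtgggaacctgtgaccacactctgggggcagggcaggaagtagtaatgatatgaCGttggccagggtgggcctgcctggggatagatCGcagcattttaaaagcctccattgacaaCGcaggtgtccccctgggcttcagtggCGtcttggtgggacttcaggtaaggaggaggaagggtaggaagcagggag

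The following motifs were searched on both strands: TGANTCA, the palindromic pattern that AP-1 factors bind, CACGTG, the E-box that Myc and Max bind, and TATAAA, the core of the TATA box. The AP-1 pattern occurred in 4.46% of windows of genes tested, in 7.24% of the higher set, in 14.5% (18 of 124) of the genes higher by at least 4-fold, and in 3.90% of the lower set. Over all windows of the RefSeq table, most of which belong to genes not tested, the share was 7.93%. CACGTG occurred in 10.6% of windows of genes tested and in 19.3% (11 of 57) of the ribosome biogenesis genes, and in 7.24% of the whole table. TATAAA stood in 6.63% of all windows of genes tested and in 6.43% of the higher set. A match describes the letters only. Gzmb (granzyme B) and Lmna (lamin A/C), both higher in KO, carry 1 TGANTCA match each, and Nop2, a methyltransferase of ribosomal RNA that was lower in KO, carries 1 CACGTG match, in capitals below.
Gzmb (chr14:56262285-56262584, minus strand): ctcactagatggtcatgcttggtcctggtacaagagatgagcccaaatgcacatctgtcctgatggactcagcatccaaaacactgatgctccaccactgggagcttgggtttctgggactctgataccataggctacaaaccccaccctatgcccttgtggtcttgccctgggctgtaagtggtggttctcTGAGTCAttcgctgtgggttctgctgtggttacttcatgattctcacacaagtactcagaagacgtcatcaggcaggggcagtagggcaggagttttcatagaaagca
Lmna (chr3:88503303-88503602, minus strand): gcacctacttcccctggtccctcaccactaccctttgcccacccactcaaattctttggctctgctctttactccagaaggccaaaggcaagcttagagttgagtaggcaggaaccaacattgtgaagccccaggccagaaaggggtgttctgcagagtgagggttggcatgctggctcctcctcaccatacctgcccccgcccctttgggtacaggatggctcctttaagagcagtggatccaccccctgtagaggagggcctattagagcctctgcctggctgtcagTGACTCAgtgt
Nop2 (chr6:125131633-125131932, plus strand): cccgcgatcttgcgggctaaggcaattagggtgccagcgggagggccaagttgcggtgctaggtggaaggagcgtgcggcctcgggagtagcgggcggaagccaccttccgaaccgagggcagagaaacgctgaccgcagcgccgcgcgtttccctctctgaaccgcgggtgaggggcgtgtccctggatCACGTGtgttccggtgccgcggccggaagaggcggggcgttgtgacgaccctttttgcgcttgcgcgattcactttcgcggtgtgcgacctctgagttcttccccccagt

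Among the partners of Ezh2 the recruiting subunit Jarid2 rose and the core subunit Suz12 fell slightly. Jarid2 stood at 65.2, 63.1 and 55 CPM in WT and 125, 120.1 and 132 CPM in KO (2.06-fold higher; log2 fold change 1.03 ± 0.10, adjusted p = 4.63e-08), with every KO library above every WT library. Of 12 PRC2 genes tested, 2 were higher (Jarid2 and Ezh1) and 4 lower (Suz12, Rbbp4, Rbbp7 and Mtf2), and the largest of the falls, that of Suz12, was from 728 ± 41.1 to 563 ± 23.1 CPM (log2 fold change -0.37 ± 0.06, adjusted p = 5.01e-05). The count of lower PRC2 genes was 0 without the level trend, and adjusted p for Suz12 was 0.063 in that setting. Ezh1 went from 20.1 ± 1.89 to 32.3 ± 3.95 CPM (log2 fold change 0.65 ± 0.18, adjusted p = 0.00933), but its adjusted p was 0.0617 without KO library 2 and 0.0566 by DESeq2. The median over the 12 was -0.12 and the mean 0.11. In PRC1, the complex that reads the mark and ubiquitinates histone H2A, Bmi1 (also Pcgf4) rose 2.15-fold and Scmh1 2.47-fold, while the alternative Pcgf subunits Pcgf5 and Pcgf6 fell 1.57-fold and 2.14-fold. Bmi1 was at 23.1, 22.7 and 26.6 CPM in WT and 63.6, 44.3 and 48.1 CPM in KO, and Pcgf5 at 135, 125 and 128 CPM in WT and 87.5, 81.1 and 77.7 CPM in KO. Neither pair of groups overlapped. Of 23 PRC1 genes tested 3 were higher and 4 lower (2 without the level trend). Over all genes tested 13.3% were higher and 11.8% lower, so the list showed no clear excess of calls.

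Some genes of another silencing system were lower. Of 20 genes of DNA methylation and H3K9 methylation tested, 8 were lower (median log2 fold change -0.23), a count of 2 without the level trend and 5 by DESeq2. They included Trim28, the corepressor that silences transposons with H3K9 methylation, at 309, 280.3 and 279 CPM in WT and 178, 197 and 195 CPM in KO (log2 change -0.60 ± 0.07, adjusted p = 1.49e-06). Ehmt2, which places H3K9 dimethylation, went from 76 ± 8.17 to 53.1 ± 1.43 CPM (log2 change -0.51 ± 0.12, adjusted p = 0.00232). The linker histone H1f0, typical of cells that have stopped dividing, went the other way, from 29.4 ± 5.81 to 68.1 ± 10.8 CPM (log2 change 1.19 ± 0.15, adjusted p = 2.75e-06), and the nucleosome-binding protein Hmgn5 fell from 112 ± 11.1 to 58.3 ± 2.28 CPM (log2 change -0.92 ± 0.11, adjusted p = 5.1e-07). In each of these 4 genes the KO libraries lay wholly on one side of the WT libraries.

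Cell cycle inhibitors rose, and they included the largest change of the comparison. Of 7 CDK inhibitor genes tested 5 were higher. Cdkn2a, which encodes p16 and p19Arf, stood at 2.96, 6.65 and 1.7 CPM in WT and 517, 469 and 567 CPM in KO (137-fold, log2 fold change 6.90 ± 0.22, adjusted p = 1.2e-17). Values are per gene, so p16 and p19Arf transcripts cannot be told apart here. Its neighbour Cdkn2b, which encodes p15, had 2 reads over the 3 WT libraries and 97 over the 3 KO libraries (log2 change 3.71 ± 0.37, adjusted p = 4e-08). Cdkn1a, which encodes p21, was at 553, 533 and 516 CPM in WT and 1117, 1317 and 1540 CPM in KO (2.48-fold, log2 change 1.30 ± 0.08, adjusted p = 2.81e-12). Cdkn2d and Cdkn2c rose 1.33-fold and 1.5-fold, the latter with adjusted p of 0.0669 by DESeq2 and 0.0518 without KO library 3. The exception was Cdkn1b (p27), at 62.2, 74.2 and 73.7 CPM in WT and 46.7, 55.2 and 54.1 CPM in KO, whose fall (log2 change -0.42 ± 0.12, adjusted p = 0.0132) lost its call in 5 settings, among them those without WT library 2 (adjusted p = 0.0643), WT library 3 (0.0584) or KO library 1 (0.0706). Genes of G1 progression were divided. Of 21 G1 cyclins, CDKs, E2F and Rb family members 5 were higher and 4 lower (0 without the level trend, 1 with all 12 libraries in the fit, 1 by DESeq2, 2 without WT library 1, 2 without WT library 2, 2 without KO library 1 and 2 without KO library 3 for the lower). Ccnd2, which drives entry into S phase, was among the most abundant transcripts at 2000, 1932 and 1833 CPM in WT and 2924, 3076 and 3289 CPM in KO (1.61-fold, log2 change 0.69 ± 0.05, adjusted p = 2.31e-10). Ccnd1 had 1 WT read and 42 KO reads (log2 change 2.83 ± 0.41, adjusted p = 1.29e-05), and Ccnd3 did not pass the test (log2 fold change 0.11 ± 0.05, adjusted p = 0.145). The other higher members were E2f7, Rb1 and Rbl2. Ccne2, a cyclin of S phase entry, fell from 138 ± 14.5 to 102 ± 5.67 CPM (log2 change -0.43 ± 0.10, adjusted p = 0.00171). The other lower members were Tfdp1, whose adjusted p was 0.063 without WT library 3, Cdk2, at 0.0565 to 0.133 without WT library 1 or 2 or KO library 1 or 3, and E2f2, at 0.101 to 0.171 without the same libraries.

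**Figure D3:**
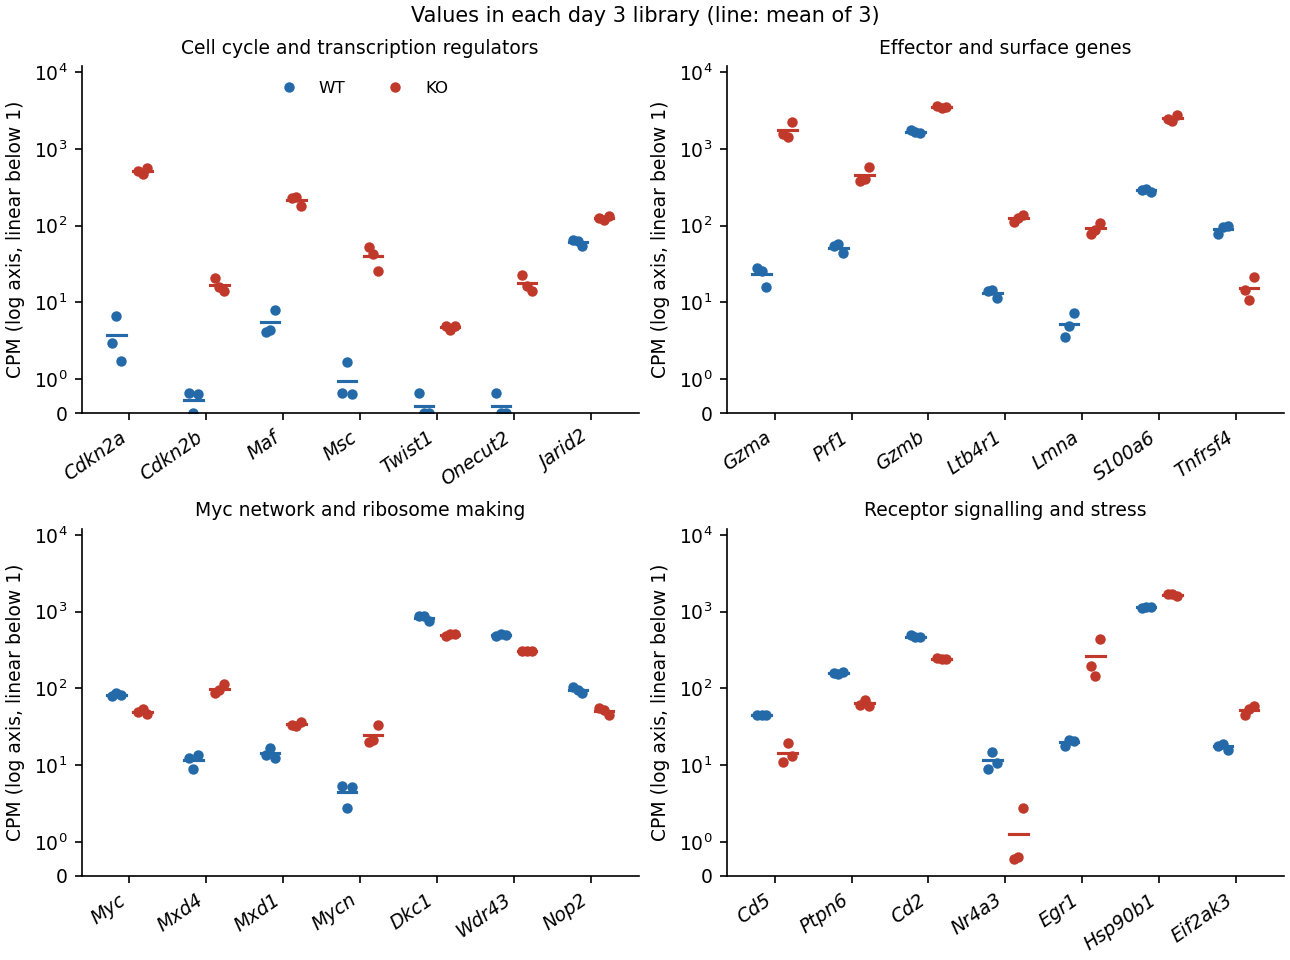
Each dot is 1 library (WT blue, KO red) and each line the mean of 3, in CPM on an axis that is logarithmic above 1 and linear below, for 28 genes in 4 panels. For every gene shown the 3 KO dots lie on one side of the 3 WT dots, and Cdkn2a has the widest gap, 1.70 to 6.65 CPM in WT and 469 to 567 CPM in KO.

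Many targets of p53, the factor that answers DNA damage and that p19Arf is known to stabilise, were higher. Of 28 tested, 13 were higher (median log2 fold change 0.64). Zmat3, an RNA-binding splicing regulator, was at 33.8, 29.9 and 28.9 CPM in WT and 70.1, 69.8 and 72.2 CPM in KO (log2 change 1.17 ± 0.13, adjusted p = 2.75e-07). Mdm2, the ubiquitin ligase that degrades p53, was at 71.7, 72.6 and 82.2 CPM in WT and 148, 129.8 and 140.0 CPM in KO (log2 change 0.88 ± 0.10, adjusted p = 2.77e-07). Ccng1 was at 85.9, 74.2 and 81.1 CPM in WT and 165, 152 and 149 CPM in KO (log2 change 0.94 ± 0.09, adjusted p = 4.06e-08). The groups did not overlap for any of these. Pmaip1 (Noxa, a killer protein of the BCL2 family) rose 3.07-fold and Trp53inp1 2.07-fold. The 2 lower members, Trp53 itself and Ddit4, differed by -0.3 log2 units each and lost their calls under several settings.

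Developmental transcription factors stayed mostly silent. Of 113 homeobox and other developmental factors listed, 77 had no read in any of the 6 libraries and 9 were tested, of which 6 were higher. The 9 entered the test through their KO level in several cases, so their count is a description. Onecut2 had 1 WT read and 102 KO reads, Twist1 1 and 27, and Lhx2 2 and 25. Sox4, which is also used by lymphoid progenitors, was at 2.37, 2.22 and 2.84 CPM in WT and 14.9, 11.4 and 12 CPM in KO (5.16-fold, log2 change 1.98 ± 0.32, adjusted p = 5.31e-05). Msc, a repressor of the basic helix-loop-helix class, was at 0.592, 1.66 and 0.567 CPM in WT and 52.7, 43.3 and 25.7 CPM in KO (log2 change 4.41 ± 0.33, adjusted p = 2.64e-10). Levels in KO ranged from 3.79 CPM for Lhx2 to 52.7 CPM for Msc, above all WT libraries of the same gene. Hoxb4 rose from 11 to 41 reads (log2 change 1.42 ± 0.37, adjusted p = 0.00624; 0.0559 by DESeq2). Igf2bp3, an RNA-binding protein of fetal tissues that is no member of the list, was at 9.48, 14.4 and 15.9 CPM in WT and 74.1, 71.9 and 72.7 CPM in KO (log2 change 2.40 ± 0.18, adjusted p = 1.99e-10).

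Myc itself fell, while the Myc antagonists Mxd4 and Mxd1 rose. Myc, which drives ribosome production and metabolism in activated T cells, was at 79.96, 86.4 and 81.1 CPM in WT and 48.7, 54.1 and 46.5 CPM in KO (1.66-fold lower; log2 fold change -0.72 ± 0.11, adjusted p = 4.47e-05). Mxd4, which pairs with Max in place of Myc and represses its targets, was at 12.4, 8.86 and 13.6 CPM in WT and 87.5, 95.7 and 113 CPM in KO (8.49-fold higher, log2 change 2.99 ± 0.17, adjusted p = 1.49e-12). Mxd1, of the same kind, was at 13.6, 16.6 and 12.5 CPM in WT and 33.8, 32.5 and 36.1 CPM in KO (log2 change 1.21 ± 0.19, adjusted p = 4.14e-05). No library of one genotype overlapped the other for these 3 genes. Of 12 genes of the network tested, 4 were higher, the other two being the Myc relatives Mycn, at 5.33, 2.77 and 5.1 CPM in WT and 19.9, 21.1 and 32.8 CPM in KO (log2 change 2.25 ± 0.29, adjusted p = 2.87e-06), and Mycl, with 3 WT and 30 KO reads (log2 change 2.00 ± 0.40, adjusted p = 0.000529). Max, the shared partner, fell from 151 ± 13.8 to 124 ± 8.28 CPM (log2 change -0.28 ± 0.09, adjusted p = 0.0246), a call that 6 settings ended, among them those without WT library 1 (0.159), KO library 2 (0.0749) or KO library 3 (0.0826).

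Ribosome biogenesis showed the largest share of lower genes among the pathway lists described here. Of 64 such genes tested 42 were lower (21 without the level trend) and the other 22 did not pass, with a median log2 fold change of -0.39 against -0.02 over all genes. Dkc1, the pseudouridine synthase of ribosomal RNA, was at 874, 892 and 751 CPM in WT and 483, 507 and 512 CPM in KO (1.68-fold lower, log2 change -0.74 ± 0.06, adjusted p = 3.77e-09). Wdr43, of the processome that matures the small subunit, was at 482, 508 and 497 CPM in WT and 304, 309 and 307 CPM in KO (log2 change -0.69 ± 0.06, adjusted p = 6.47e-09). Nop2, whose promoter is printed above, was at 105, 96.4 and 87.3 CPM in WT and 54.7, 53 and 45.4 CPM in KO (log2 change -0.90 ± 0.12, adjusted p = 2.49e-06). Within each genotype these levels were tight, and the WT and KO ranges lay well apart. Ncl (nucleolin), the most abundant of them, fell from 4312 ± 117 to 3302 ± 110.0 CPM (log2 change -0.38 ± 0.05, adjusted p = 6.7e-07), Nop56 1.43-fold and Gnl3 1.59-fold. Ribosomal proteins themselves moved less. Of 77 cytosolic ones 26 were lower, with a median of -0.09, and that count was unstable, at 13 with median-of-ratios scaling, 13 with TMM scaling, 0 without the level trend, 5 with all 12 libraries in the fit, 12 by edgeR, 8 by DESeq2, 8 without WT library 1, 13 without WT library 3 and 8 without KO library 2. Translation initiation factors gave 18 lower and 3 higher of 52 (1 without the level trend, 11 with all 12 libraries in the fit and 10 by DESeq2 for the lower). Over all genes tested 28.6% were lower at a mean of 100 to 300 CPM and 35.9% above that. The counts of ribosomal proteins and initiation factors are therefore not read as an excess of falls.

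Synthesis of nucleotides, polyamines and DNA fell in part. Of 33 nucleotide synthesis genes tested 14 were lower (median -0.28; 5 without the level trend). Cad, which carries out the opening steps of pyrimidine synthesis, was at 148, 161 and 159.9 CPM in WT and 104, 106 and 88.1 CPM in KO (log2 change -0.65 ± 0.09, adjusted p = 1.12e-05). Impdh2, the rate-limiting enzyme of guanine nucleotide synthesis, was at 209, 208 and 202 CPM in WT and 146, 132 and 134 CPM in KO (log2 change -0.58 ± 0.08, adjusted p = 5.56e-06). Of 36 genes of amino acid and one-carbon metabolism 14 were lower (5 without the level trend and 9 by DESeq2). They held the polyamine route from methionine: Mat2a, which makes S-adenosylmethionine, the methyl donor of PRC2 and other methyltransferases, fell from 410.5 ± 33.1 to 277 ± 18.4 CPM (log2 change -0.56 ± 0.07, adjusted p = 2.52e-06), Amd1 from 442 ± 18.4 to 314 ± 9.48 CPM (log2 change -0.49 ± 0.06, adjusted p = 3.05e-06), Srm from 246 ± 12.4 to 176 ± 15.1 CPM (log2 change -0.48 ± 0.08, adjusted p = 6.98e-05) and Sms from 238 ± 12.3 to 161 ± 13.5 CPM (log2 change -0.57 ± 0.08, adjusted p = 1.03e-05). None of these 6 genes had overlapping groups. Of 52 replication genes 26 were lower (median -0.28; 8 without the level trend, 17 with all 12 libraries in the fit and 16 by DESeq2). Cdc6, which loads the replicative helicase, was at 127, 129 and 142 CPM in WT and 83, 89.2 and 87 CPM in KO (log2 change -0.61 ± 0.09, adjusted p = 2.6e-05). Rpa2, which coats single-stranded DNA, was at 262, 245 and 266 CPM in WT and 187, 183 and 167 CPM in KO (log2 change -0.53 ± 0.08, adjusted p = 1.17e-05). Hells, a chromatin remodeller of S phase, was at 346, 358 and 363 CPM in WT and 264, 272 and 238 CPM in KO (log2 change -0.46 ± 0.07, adjusted p = 2.08e-05). Mitotic genes were less stable: 19 of 54 were lower and 2 higher. The count of lower ones was 2 without the level trend, 8 with all 12 libraries in the fit, 11 by DESeq2 and 12 without WT library 3. The list summed to 12731 to 13404 CPM in WT. Over all genes tested 28.6% were lower at a mean of 100 to 300 CPM and 35.9% above that. The mitotic count is therefore not read as an excess of falls. The condensin subunit Ncapd2 fell from 378 ± 21.2 to 266 ± 14.9 CPM (log2 change -0.50 ± 0.07, adjusted p = 6.97e-06).

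**Figure D4:**
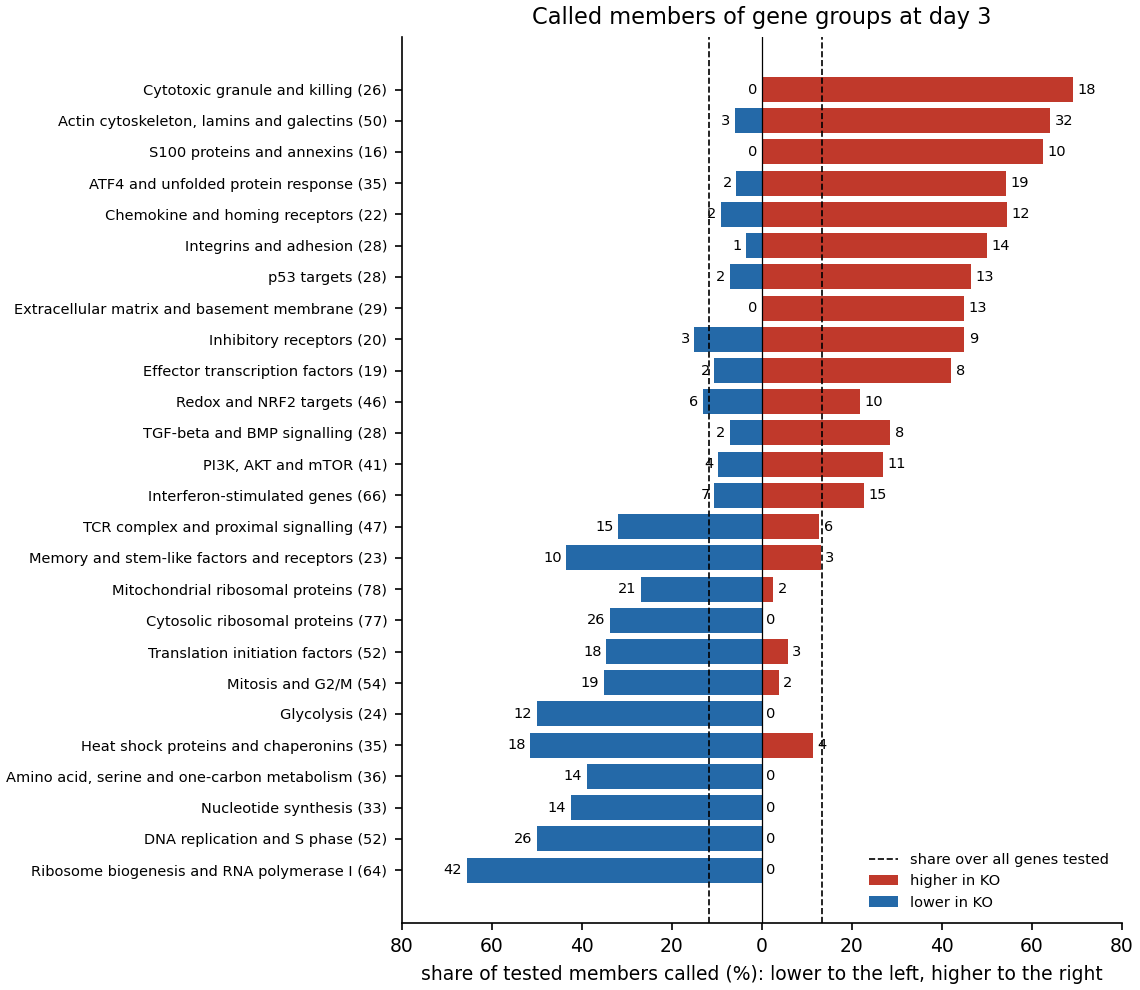
Bars give the percentage of tested members of each gene list that were lower (blue, left) and higher (red, right) in KO, with their number at the bar, the number tested in parentheses, and the shares over all genes tested (11.8% and 13.3%) as dashed lines. Lists of growth, such as ribosome biogenesis (42 of 64 lower), lie to the left, and the cytotoxic (18 of 26 higher) and actin lists (32 of 50 higher) to the right. The dashed lines do not account for level: the share lower was 35.9% among genes at 300 CPM or more.

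Many glycolysis genes fell, as did many cytosolic and mitochondrial chaperones, and many genes of ATF4 and the unfolded protein response rose. Of 24 glycolysis genes 12 were lower (median -0.26; 5 without the level trend). Gpi1, an isomerase early in the pathway, was at 557, 557 and 582 CPM in WT and 378, 416 and 435 CPM in KO (log2 change -0.47 ± 0.06, adjusted p = 5.75e-06). The lactate exporter Slc16a1 was at 144, 158 and 136 CPM in WT and 77.1, 92.5 and 97.9 CPM in KO (log2 change -0.71 ± 0.10, adjusted p = 9.93e-06), and the phosphofructokinases Pfkp and Pfkl fell 1.32-fold and 1.39-fold. Of 35 genes on a joint list of ATF4 and the unfolded protein response, 19 were higher (median 0.38). The latter response expands folding capacity in the endoplasmic reticulum. Hsp90b1 (the chaperone GRP94) was at 1134, 1162 and 1136 CPM in WT and 1683, 1716 and 1622 CPM in KO (log2 change 0.55 ± 0.05, adjusted p = 7.22e-09). Eif2ak3, the stress sensor PERK, was at 17.8, 18.8 and 15.9 CPM in WT and 44.8, 53.5 and 58.5 CPM in KO (2.99-fold, log2 change 1.52 ± 0.17, adjusted p = 2.15e-07), and the disulfide isomerase Pdia6 at 299, 279.7 and 259.7 CPM in WT and 397, 422 and 417 CPM in KO (log2 change 0.56 ± 0.07, adjusted p = 1.12e-06). The 3 KO libraries were the 3 highest for each. The response's transcription factor Xbp1 did not pass the test, at 114, 115 and 116 CPM in WT and 115, 113 and 102 CPM in KO (log2 fold change -0.06 ± 0.09, adjusted p = 0.662). Of 35 cytosolic and mitochondrial chaperones 18 were lower (2 without the level trend) and 4 higher. Fkbp4, a partner of Hsp90, fell from 270.2 ± 7.71 to 178 ± 4.2 CPM (log2 change -0.60 ± 0.07, adjusted p = 9.26e-07), while its relative Fkbp5, a glucocorticoid-induced gene, rose from 99.7 ± 14.4 to 167 ± 13.2 CPM (log2 change 0.75 ± 0.10, adjusted p = 5.18e-06). Dnajb4 rose 3.6-fold and Hspb1, with 0 WT and 18 KO reads, was at least 5.56-fold higher against the floor of 3 reads over the group. The remaining higher member was Bag3.

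Most transcripts of the mitochondrial genome rose, and most nuclear genes of the respiratory chain did not pass the test. Of the 13 mitochondrial messenger RNAs 10 were higher (median 0.31; 3 without the level trend). The complex III subunit mt-Cytb was at 1688, 1640 and 1660 CPM in WT and 2684, 2266 and 2262 CPM in KO (log2 change 0.53 ± 0.06, adjusted p = 1.64e-07), and mt-Nd4, of complex I, at 5605, 5560 and 5652 CPM in WT and 8665, 7478 and 7262 CPM in KO (log2 change 0.47 ± 0.05, adjusted p = 2.41e-07). KO library 1 was the highest for both, and mitochondrial genes took 3.71% to 4.02% of the reads in KO and 3.18% to 3.22% in WT. That share is also a common measure of RNA and cell quality, and its part in the result was not tested. Of 75 nuclear genes of the chain 61 did not pass, 13 were lower and 1 higher (median -0.10). These are abundant genes, with a summed level of 14946 to 15308 CPM in WT. Over all genes tested 11.8% were lower, but 28.6% of those at a mean of 100 to 300 CPM. The count is therefore not read as an excess of falls. The count of lower genes was 0 without the level trend, 6 with all 12 libraries in the fit and 2 by DESeq2. It was 7 without WT library 1, 5 without WT library 3 and 8 without KO library 2.

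Metal and redox genes showed strong rises in the metallothioneins and ferritin. Of 46 redox genes 10 were higher and 6 lower (2 without the level trend and 3 by DESeq2 for the lower). Of 26 iron and heme genes 3 were higher, 1 was lower and 22 were not called (median -0.12). Over all genes tested 13.3% were higher, so iron genes did not shift as a list. Mt1, a zinc-binding metallothionein, was at 309.8, 315 and 315 CPM in WT and 553, 599 and 603 CPM in KO (log2 change 0.90 ± 0.06, adjusted p = 5.31e-11). Mt3, best known in brain, was at 1.19, 1.66 and 0.567 CPM in WT and 25.9, 21.1 and 24.6 CPM in KO (21-fold, log2 change 3.57 ± 0.33, adjusted p = 9.09e-09). Fth1, the ferritin heavy chain that stores iron, was at 351, 364 and 365 CPM in WT and 634, 690.0 and 627 CPM in KO (log2 change 0.85 ± 0.06, adjusted p = 1.15e-10). Tfrc, the transferrin receptor that takes iron up, went down, was at 313, 301 and 293 CPM in WT and 206, 192 and 176 CPM in KO (log2 change -0.66 ± 0.08, adjusted p = 3.58e-07). In all 4 the ranges were apart. Pparg, a nuclear receptor of fat metabolism, was at 1.78, 0.554 and 2.27 CPM in WT and 25.9, 33 and 24.1 CPM in KO (18-fold, log2 change 3.56 ± 0.33, adjusted p = 1.14e-08). Of the 31 fatty acid oxidation genes tested with it 6 were higher (3 without the level trend, 3 by DESeq2 and 3 without WT library 1), and Acadl and the carnitine carrier Slc25a20 rose 1.53-fold and 2-fold.

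Most killing genes rose. Of 26 cytotoxic genes 18 were higher (median log2 fold change 0.79), a list chosen with these libraries' results known. Of the markers of NK cells, which use the same granule, Ncr1 had no read, Eomes and Fcer1g were higher in KO, and their part in this result was not tested. Prf1 was at 54.5, 57 and 44.2 CPM in WT and 382, 401 and 575 CPM in KO (8.72-fold, log2 change 3.08 ± 0.12, adjusted p = 4.72e-16). Gzma was at 28.4, 26 and 15.9 CPM in WT and 1580, 1416 and 2236 CPM in KO (log2 change 6.17 ± 0.15, adjusted p = 2.64e-20). Gzmb was at 1771, 1656 and 1639 CPM in WT and 3635, 3472 and 3514 CPM in KO (2.1-fold, log2 change 1.07 ± 0.05, adjusted p = 1.15e-14), so it was the most abundant granzyme of both genotypes. KO library 3 was the highest for Gzma and Prf1 but not for Gzmb. Of the neighbouring granzymes, whose sequences are close enough that reads may have been divided between them in an unknown way, Gzmc had 2 WT and 85 KO reads and Gzmd 0 and 39, at least 12.1-fold higher against the floor. Ctsd, a lysosomal protease, rose 3.49-fold, Srgn, the proteoglycan that packs granules, 2.03-fold, and Serpinb9, which protects the killer cell from granzyme B, 2.14-fold. Serine protease inhibitors more widely gave 7 higher of 11 (4 without KO library 3), led by Serpine2 at 34.4, 27.7 and 37.4 CPM in WT and 167, 161 and 214 CPM in KO (log2 change 2.41 ± 0.13, adjusted p = 2.85e-13).

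The transcription factors of effector and memory cells did not all shift one way. Of 19 effector factors 8 were higher and 2 lower. Id2, which blocks E proteins and favours effector cells, was at 740.4, 739 and 687 CPM in WT and 2816, 2871 and 3563 CPM in KO (4.27-fold, log2 change 2.08 ± 0.07, adjusted p = 1.2e-17), and Prdm1 (Blimp-1), a repressor of memory genes, at 36.1, 34.9 and 28.4 CPM in WT and 92.5, 107 and 133 CPM in KO (log2 change 1.70 ± 0.14, adjusted p = 8.31e-10). Both KO ranges lay far above WT. The lower members were Tbx21 and Irf4. Tbx21 (T-bet), the factor of type 1 effector cells, was at 41.5, 31 and 40.8 CPM in WT and 22.9, 22.7 and 22.4 CPM in KO (log2 change -0.70 ± 0.17, adjusted p = 0.00342). Irf4, induced in proportion to T cell receptor signal, was at 146, 129.6 and 121 CPM in WT and 74.1, 87.1 and 74.4 CPM in KO (log2 change -0.74 ± 0.10, adjusted p = 6.52e-06). Maf, which drives Il10 in several T cell types, was at 4.15, 4.43 and 7.94 CPM in WT and 229.7, 238 and 179.9 CPM in KO (log2 change 5.09 ± 0.19, adjusted p = 1.62e-16), and Il10 itself at 3.55, 1.66 and 3.4 CPM in WT and 72.1, 67.6 and 92.4 CPM in KO (log2 change 4.37 ± 0.25, adjusted p = 1.13e-12). Of 23 memory genes 10 were lower (median 0.16, mean -0.24). Bach2, which restrains effector genes, was at 52.1, 53.2 and 53.3 CPM in WT and 27.4, 33.5 and 24.6 CPM in KO (log2 change -0.88 ± 0.15, adjusted p = 9.54e-05). Tcf7, the factor of stem-like T cells, was at 35.5, 28.2 and 32.9 CPM in WT and 13.4, 15.7 and 20.2 CPM in KO (log2 change -0.94 ± 0.20, adjusted p = 0.000937). Dapl1, whose fall was the largest of the list, was at 71.7, 50.4 and 66.3 CPM in WT and 9.45, 3.79 and 6.02 CPM in KO (log2 change -3.16 ± 0.24, adjusted p = 3.92e-10). Il7r, the IL-7 receptor of memory precursors, was at 99.5, 115 and 117 CPM in WT and 58.2, 62.7 and 90.8 CPM in KO (log2 change -0.66 ± 0.13, adjusted p = 0.00045; 0.074 without the level trend), and Klrg1, a marker of short-lived effector cells, did not reach the level needed for testing. The 3 higher memory genes were Klf3, Eomes and S1pr1, and their number was 5 with median-of-ratios scaling, 6 with TMM scaling, 5 with quantile normalization, 0 without the level trend, 6 by edgeR and 5 without KO library 1.

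Surface and signalling proteins that transmit or dampen the T cell receptor signal changed in both directions. Of 47 genes of the receptor and its signalling 15 were lower and 6 higher (6 without the level trend for the lower and 3 without the level trend for the higher). Over all genes tested 13.3% were higher, and 28.6% were lower at a mean of 100 to 300 CPM. The list is therefore not read as an excess of calls. Cd2, an adhesion receptor that helps the signal, was at 494, 461 and 463 CPM in WT and 249, 239.6 and 244 CPM in KO (log2 change -0.95 ± 0.06, adjusted p = 4.53e-11). Cd5, a receptor that restrains it, was at 45.6, 44.3 and 44.8 CPM in WT and 10.9, 19.5 and 13.1 CPM in KO (log2 change -1.60 ± 0.20, adjusted p = 1.24e-06). Ptpn6, the inhibitory phosphatase SHP-1, was at 156, 153 and 162 CPM in WT and 61.2, 70.8 and 59.1 CPM in KO (2.46-fold lower, log2 change -1.29 ± 0.10, adjusted p = 3.44e-10). The WT libraries were the 3 highest for each. The coreceptor chain Cd8b1 was at 438, 406 and 429.9 CPM in WT and 278, 269 and 306 CPM in KO (log2 change -0.58 ± 0.07, adjusted p = 6.9e-07), while Cd3d did not pass the test (412, 388 and 382 CPM in WT and 325, 360.2 and 471 CPM in KO; log2 fold change -0.05 ± 0.09, adjusted p = 0.739), though without KO library 3 its adjusted p was 0.0409. Other restraining proteins went up. Pag1, which brings the inhibitory kinase Csk to the membrane, was at 14.8, 17.7 and 23.2 CPM in WT and 43.8, 62.2 and 48.7 CPM in KO (log2 change 1.43 ± 0.18, adjusted p = 2.45e-06), and the phosphatase Ubash3b (Sts-1) at 47.4, 42.1 and 43.7 CPM in WT and 91.5, 89.2 and 90.8 CPM in KO (log2 change 1.01 ± 0.11, adjusted p = 2.84e-07).

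Early response genes of that signal were also divided. Of 30 tested 7 were higher and 7 lower (4 without the level trend for the lower). Egr1, induced by the MAP kinase pathway, was at 17.8, 21.1 and 20.4 CPM in WT and 193, 146 and 443 CPM in KO (13.2-fold, log2 change 3.49 ± 0.23, adjusted p = 1.53e-11), with KO library 3 far above the other two. Fosl2, an AP-1 subunit, was at 59.8, 58.2 and 40.3 CPM in WT and 104, 109.8 and 106 CPM in KO (log2 change 1.02 ± 0.13, adjusted p = 1.67e-06). Nr4a3, a rapid reporter of receptor signal, was at 8.88, 15 and 10.8 CPM in WT and 0.497, 0.541 and 2.73 CPM in KO (9.18-fold lower, log2 change -2.58 ± 0.40, adjusted p = 2.94e-05). So Egr1 and Nr4a3, both induced within the early response, moved in opposite directions without overlap.

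Costimulatory receptors changed in both directions, also within the TNF receptor family. Of 26 costimulatory genes 6 were higher (3 without the level trend) and 5 lower, the latter being Tnfrsf4, Tnfrsf18, Cd27, Lta and Ltb. Tnfrsf4 (OX40) was at 78.8, 96.9 and 99.8 CPM in WT and 14.4, 10.8 and 21.3 CPM in KO (log2 change -2.53 ± 0.18, adjusted p = 1.45e-10). Tnfrsf18 (GITR) was at 229.8, 225 and 231 CPM in WT and 144, 146 and 154 CPM in KO (log2 change -0.62 ± 0.08, adjusted p = 1.14e-06). Tnfrsf8 (CD30), of the same family, was at 51.5, 70.9 and 48.8 CPM in WT and 137, 145 and 133 CPM in KO (2.42-fold higher, log2 change 1.28 ± 0.12, adjusted p = 1.3e-08). Icos was at 318, 312 and 337 CPM in WT and 411, 463 and 466 CPM in KO (log2 change 0.47 ± 0.07, adjusted p = 1.22e-05). Each of these was separated between genotypes. Ltb and Lta, the ligands that shape lymphoid tissue, fell 1.98-fold and 1.85-fold. Inhibitory receptors gave 9 higher of 20 (median 0.49). Havcr2 (TIM-3) was at 6.51, 4.99 and 3.4 CPM in WT and 29.8, 32.5 and 43.2 CPM in KO (log2 change 2.62 ± 0.26, adjusted p = 4e-08). Entpd1 (CD39), which breaks down extracellular ATP, was at 5.33, 6.09 and 4.54 CPM in WT and 16.9, 24.3 and 27.9 CPM in KO (log2 change 1.91 ± 0.27, adjusted p = 9.57e-06). Cd244a (2B4) was at 2.37, 2.77 and 2.84 CPM in WT and 13.9, 9.19 and 16.4 CPM in KO (log2 change 1.92 ± 0.33, adjusted p = 9.77e-05). The KO libraries were the highest in each case. The 3 lower members were Cd101, Cd200 and Ctla4, a number of 1 with a filter of 5 CPM, 1 by DESeq2 and 1 without WT library 1, and Cd101 was at 8.29, 4.43 and 7.37 CPM in WT and 1.49, 1.62 and 1.09 CPM in KO (log2 change -1.65 ± 0.38, adjusted p = 0.00221).

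Genes of cell shape and movement rose widely. Of 50 genes of the actin skeleton, lamins and galectins 32 were higher (median 0.34; 19 without the level trend). Lmna, which stiffens the nucleus, was at 3.55, 4.99 and 7.37 CPM in WT and 78.6, 88.2 and 109.9 CPM in KO (17.4-fold, log2 change 3.92 ± 0.22, adjusted p = 9.37e-13). Vim, the intermediate filament vimentin, was at 2155, 2174 and 2281 CPM in WT and 4704, 4527 and 4393 CPM in KO (2.06-fold, log2 change 1.04 ± 0.05, adjusted p = 1.1e-14), and the membrane scaffold Ahnak at 184, 202 and 178 CPM in WT and 406, 419 and 498 CPM in KO (log2 change 1.22 ± 0.08, adjusted p = 1.6e-11). Vim and Actg1 (γ-actin, from 2601 ± 5.52 to 4324 ± 187 CPM, log2 change 0.73 ± 0.05, adjusted p = 9.28e-12) were among the very abundant transcripts that rose. The 3 lower members were Lgals9 (log2 change -0.58 ± 0.11, adjusted p = 0.000415), Cnn2 (log2 change -0.28 ± 0.08, adjusted p = 0.0155) and the very abundant Tmsb10, from 3739 ± 58.3 to 3392 ± 158 CPM (log2 change -0.14 ± 0.05, adjusted p = 0.027). The call of Cnn2 was lost without WT library 1 or 2 or KO library 1 or 2 (adjusted p = 0.0622 to 0.0946), and that of Tmsb10 without any single library but KO library 3 (0.0507 to 0.127). Of 16 S100 proteins and annexins, which bind calcium, 10 were higher. S100a6 was at 294, 299.7 and 278 CPM in WT and 2460, 2310 and 2813 CPM in KO (log2 change 3.11 ± 0.06, adjusted p = 1.44e-21). S100a4 was at 66.9, 73.7 and 53.9 CPM in WT and 559.9, 509.9 and 666 CPM in KO (log2 change 3.14 ± 0.10, adjusted p = 1.26e-17). Anxa1, known for resolving inflammation, was at 0, 0.554 and 1.7 CPM in WT and 16.4, 12.4 and 22.4 CPM in KO (22.7-fold, log2 change 3.45 ± 0.39, adjusted p = 3.84e-07). Tubulins gave 7 higher and 2 lower of 12, and the higher ones were minor forms such as Tubb2b and Tuba8. Tubb2b was at 24.3, 22.7 and 29.5 CPM in WT and 74.6, 65.4 and 65.1 CPM in KO (log2 change 1.39 ± 0.14, adjusted p = 8.24e-08). Tuba8 was at 2.96, 2.77 and 1.7 CPM in WT and 13.4, 10.8 and 10.4 CPM in KO (log2 change 1.86 ± 0.33, adjusted p = 0.000166).

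Adhesion and homing receptors changed with them. Of 28 integrins and adhesion genes 14 were higher (9 with a filter of 5 CPM and 8 without the level trend). Itgb3, the β3 integrin chain, was at 8.88, 11.6 and 14.7 CPM in WT and 42.3, 37.3 and 58.5 CPM in KO (log2 change 1.88 ± 0.21, adjusted p = 3.3e-07). Cd44, a marker for which the cells had been chosen as low at the start of culture, was at 142, 121 and 133 CPM in WT and 258, 255 and 225 CPM in KO (log2 change 0.89 ± 0.08, adjusted p = 1.73e-08). All 3 KO libraries were thus above all 3 WT libraries for Cd44. Cdh1 (E-cadherin) was at 0.592, 2.22 and 1.7 CPM in WT and 6.96, 5.95 and 23.5 CPM in KO (log2 change 2.21 ± 0.44, adjusted p = 0.00052), with KO library 3 well above the other two. Of 22 chemokine and homing receptors 12 were higher and 2 lower (4 without KO library 3). Among the lower was Ccr7, the lymph node receptor, at 151, 128 and 145 CPM in WT and 88.5, 105 and 82.6 CPM in KO (log2 change -0.62 ± 0.10, adjusted p = 6.16e-05). Ltb4r1, the leukotriene B4 receptor that draws cells to inflamed tissue, was at 14.2, 14.4 and 11.3 CPM in WT and 112, 124 and 137 CPM in KO (9.33-fold, log2 change 3.13 ± 0.15, adjusted p = 2.5e-14). Cxcr6 was at 6.51, 13.3 and 11.3 CPM in WT and 93, 61.1 and 97.4 CPM in KO (log2 change 2.92 ± 0.22, adjusted p = 1.86e-10). Ccr2 was at 43.8, 45.4 and 51 CPM in WT and 201, 203 and 215 CPM in KO (log2 change 2.12 ± 0.10, adjusted p = 2.1e-14). Among the receptors named here, those for inflamed tissue were higher and that of lymph node entry lower. They are a chosen part of the 22 tested, and the others were not sorted by tissue. Of 81 matrix and basement membrane genes 29 were tested, and 13 of these were higher. Adam8, a surface protease, was at 16.6, 22.2 and 14.7 CPM in WT and 119, 121 and 142 CPM in KO (log2 change 2.78 ± 0.15, adjusted p = 3.55e-13). Spp1 (osteopontin) was at 0.592, 1.66 and 1.13 CPM in WT and 16.4, 15.7 and 12.6 CPM in KO (log2 change 2.92 ± 0.35, adjusted p = 8.1e-07). Esm1, a secreted proteoglycan of endothelium, was at 1.78, 5.54 and 3.4 CPM in WT and 73.6, 93 and 97.4 CPM in KO (log2 change 4.36 ± 0.25, adjusted p = 2.41e-12). Of the endothelial and stromal markers Cdh5, Tek, Col3a1, Pdgfra, Dcn and Lum had no read, and the summed level of that list of 12 was 33.2 to 34.4 CPM in WT and 43.2 to 58.4 CPM in KO, nearly all of it Pecam1.

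Receptors and kinases of growth factor pathways rose in part. Of 28 TGF-β and BMP genes 8 were higher. Tgfbr2, the ligand-binding TGF-β receptor, was at 20.7, 19.4 and 23.2 CPM in WT and 47.2, 45.4 and 44.9 CPM in KO (log2 change 1.08 ± 0.16, adjusted p = 1.47e-05). Bmpr2 was at 4.15, 4.43 and 6.24 CPM in WT and 16.9, 15.7 and 13.7 CPM in KO (log2 change 1.48 ± 0.29, adjusted p = 0.000411). Tgif2, a corepressor of the pathway, fell, was at 16, 21.1 and 16.4 CPM in WT and 8.95, 4.87 and 6.56 CPM in KO (log2 change -1.30 ± 0.28, adjusted p = 0.00103). Of 41 PI3K and mTOR genes 11 were higher and 4 lower (0 without the level trend for the lower). Sgk1, a kinase activated by PI3K, was at 14.8, 14.4 and 15.3 CPM in WT and 72.1, 61.6 and 76.6 CPM in KO (4.72-fold, log2 change 2.16 ± 0.16, adjusted p = 1.51e-10). The regulatory subunit Pik3r1 was at 86.5, 99.7 and 88.5 CPM in WT and 129, 160.1 and 173 CPM in KO (log2 change 0.74 ± 0.10, adjusted p = 9.81e-06) and its relative Pik3r3 had 1 WT read and 46 KO reads. Il18r1 and Il12rb1, which receive IL-18 and IL-12, rose. Il18r1 was at 73.5, 70.9 and 76.6 CPM in WT and 184, 159.5 and 156 CPM in KO (log2 change 1.16 ± 0.10, adjusted p = 1.25e-09). Il12rb1 was at 33.8, 33.8 and 34.6 CPM in WT and 57.7, 68.7 and 68.4 CPM in KO (log2 change 0.91 ± 0.13, adjusted p = 1.35e-05). All genes with values in these sentences had separate ranges.

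Genes known from interferon responses did not move as a block. Of 66 tested 15 were higher and 7 lower, with a median of 0.06 (4 without the level trend for the lower). All 4 genes tested of the Ifitm family, which includes antiviral membrane proteins, were higher (Ifitm1, Ifitm2, Ifitm3 and Ifitm10). Ifitm3 was at 64, 59.3 and 60.1 CPM in WT and 469.9, 504 and 485 CPM in KO (7.95-fold, log2 change 2.97 ± 0.08, adjusted p = 1.72e-19). Ifitm2 was at 29, 31.6 and 31.8 CPM in WT and 197, 195 and 256 CPM in KO (log2 change 2.76 ± 0.11, adjusted p = 2.27e-15). Of 10 guanylate binding proteins 4 were higher, led by Gbp4 at 101, 104 and 100.4 CPM in WT and 224, 211 and 196 CPM in KO (log2 change 1.04 ± 0.08, adjusted p = 9.85e-10). In the other direction Ifi27l2a was at 124, 124 and 129 CPM in WT and 42.3, 37.9 and 30.1 CPM in KO (3.42-fold lower, log2 change -1.76 ± 0.12, adjusted p = 6.31e-11). Ifi203 was at 94.2, 94.2 and 122 CPM in WT and 65.6, 49.2 and 65.1 CPM in KO (log2 change -0.78 ± 0.13, adjusted p = 5.55e-05). Each of the 5 genes with values here was apart between genotypes.

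MHC class II genes, which activated mouse T cells are known to keep mostly silent, were read at low levels in KO. Of 13 class II presentation genes 6 were higher (3 without the level trend) and 2 lower. H2-Aa had 1 WT read and 128 KO reads (log2 change 4.27 ± 0.38, adjusted p = 4.99e-09), at 27.8, 24.9 and 14.2 CPM in the KO libraries. H2-Eb1 had 3 and 62 reads (log2 change 2.89 ± 0.38, adjusted p = 2.98e-06). The invariant chain Cd74 was at 1.19, 1.11 and 0.567 CPM in WT and 16.9, 19.5 and 7.66 CPM in KO (log2 change 2.93 ± 0.38, adjusted p = 3.03e-06). KO library 3 was the lowest of its group for all 3. H2-Ab1 was read in both genotypes, at 34.4, 43.2 and 49.3 CPM in WT and 72.6, 71.4 and 58.5 CPM in KO (log2 change 0.67 ± 0.14, adjusted p = 0.000941; 0.0539 without the level trend). These genes also mark dendritic cells: of 12 dendritic cell markers 7 were tested and 5 higher, with a summed level of 122 to 142 CPM in WT and 159.7 to 221 CPM in KO. Of the defining markers Cd209a and Siglech had no read, and Flt3, Itgax and Clec9a were at no more than 0.554 CPM in any library. Of 10 B cell markers 5 had no read, among them Ms4a1 and Blnk, and 2 were tested with 0 called. Their summed level was 5.54 to 6.81 CPM in WT and 6.46 to 11.9 CPM in KO. The part of dendritic or B cells in the class II reads was not tested. Ciita, the activator of class II genes, was at 1.78, 0 and 1.13 CPM in WT and 5.97, 10.8 and 1.64 CPM in KO (log2 change 1.73 ± 0.50, adjusted p = 0.0128), a call lost without WT library 2 (adjusted p = 0.0689), KO library 1 (0.0797) or KO library 2 (0.132).

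Part of the changes lay side by side on the chromosomes. The next tested gene along the chromosome was also higher for 299 of 1413 higher genes (21.2%, against 13.2% over all genes) and also lower for 202 of 1272 lower genes (15.9%, against 11.8%). There were 21 runs of at least 4 successive tested genes that were all higher and 8 of at least 4 that were all lower. Coordinates below are from GENCODE M21 on GRCm38. The granzyme run Gzme, Gzmd, Gzmf, Gzmc and Gzmb spans chr14:56117626-56262260, the Ifitm run Ifitm2, Ifitm1, Ifitm3, B4galnt4 and Pkp3 chr7:140954837-141090510, and the serpin run Serpinb1a, Serpinb6b, Serpinb9, Serpinb6a and Nqo2 chr13:32842092-34002794. These 3 runs of 5 hold related copies, among which reads may be shared. The other two hold unrelated genes, Gadd45g, Syk, Auh, Nfil3 and Sptlc1 at chr13:51846678-53377397, and Sc5d, Tbcel, Arhgef12, Oaf and Thy1 at chr9:42251595-44048579. Shorter runs joined named genes with neighbours, such as Il24, Il19, Il10 and Mapkapk2, Gpx8, Gzma, Gzmk and Esm1, and Unc5b, Sgpl1, Adamts14 and Prf1. Gpx8, between whose gene and Esm1 the granzymes A and K lie, had 1 WT read and 86 KO reads. Among the lower runs was Ltb, Tnf, Lta and Nfkbil1 at chr17:35194439-35235792, in which Tnf was near the threshold (log2 change -0.56 ± 0.20, adjusted p = 0.0406) and lost its call without WT library 1 (adjusted p = 0.152), WT library 2 (0.122), KO library 2 (0.183) or KO library 3 (0.0605). By chromosome the share of tested genes that were higher ran from 8.03% on chromosome 8 to 17.5% on chromosome 1 among the larger autosomes, beside 10 of 13 on the mitochondrial genome.

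Most of these differences had the same sign at day 5, where other libraries of both genotypes were measured and 10903 genes were tested in the same way. There 1722 genes (15.8%) were higher and 2305 (21.1%) lower. Of 1392 higher genes that were tested again 1209 (86.9%) had the same sign, and of 1272 lower genes 1144 (89.9%). Of the genes higher at day 3, 807 were higher at day 5, which is 56.5% of the day 3 calls and 46.9% of the day 5 calls, and 42 were lower. Of the genes lower at day 3, 857 were lower at day 5, which is 67.3% and 37.2%, and 33 were higher. Of 35 genes of ATF4 and the unfolded protein response 3 were higher at day 5 and 13 lower, and some chaperones changed sign. Hsp90b1 had a log2 fold change of 0.55 at day 3 and -0.52 at day 5 (adjusted p = 0.00187), Pdia6 0.56 and -0.68 (0.000391) and Sdf2l1, a cochaperone, 0.54 and -0.64 (0.000634), whereas the sensor Eif2ak3 was higher at both, 1.52 and 1.75 (6.51e-06). Of 24 memory genes tested at day 5, 10 were higher and 4 lower. Bach2 changed sign, at -0.88 and 0.74 (0.0024), as did Tcf7 at -0.94 and 0.61 (0.0126) and the ligand gene Ltb at -0.99 and 0.57 (0.00687). Of 52 replication genes 50 were lower at day 5, with a median of -1.31 against -0.28 at day 3, and Hells was at -0.46 and -1.77 (1.42e-07). The difference between the days was not tested here for any of these genes. The labels' culture times add up to a later day than 5 for those libraries, which are called day 5 after their titles.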

How the data were processed

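Libraries were QuantSeq 3′ mRNA libraries from 500 ng of total RNA, per the labels' protocols. The authors named the deposited columns TPM. In every column the total is 1000000 and, within 0.001 read, 100% of values came out as whole reads times a step, so the deposited values were handled as CPM, with no correction for length. GRCm39 and mm10 are the builds listed in the submitters' processing notes. Aligner, counter, annotation and strand setting: not given in the sources used here. Counts of overlapping, antisense and near-copy genes are therefore uncertain.

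Genes with at least 1 CPM in at least 3 of the 6 day 3 libraries were fitted as log2(CPM + 1) with limma 3.58.1 in R 4.3.3 (1 mean per genotype, empirical Bayes moderation with a trend on level, two-sided, Benjamini-Hochberg adjustment, threshold 0.05). The log2 fold changes are on this scale, with their SE, and understate changes of low genes; other folds are ratios of mean CPM. With 1 to 3 reads in a group no fold is given. Day 5 was fitted alike, on its own 6 libraries. Reads recovered from the CPM steps were tested with edgeR 4.0.16 (1530 genes higher, 1087 lower) and DESeq2 1.42.0 (927 and 577). The code was tested on simulated data. The fit was repeated with a pseudocount of 0.1 or 5, without the filter or at 5 CPM, with median-of-ratios, TMM or quantile scaling, with the replicate number as a block, no trend, a robust prior, all 12 libraries, a 2-fold minimum and leaving out each library.

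The gene groups, 68 pathway lists, 12 marker lists and 63 families defined by symbol, and the rule for named genes were chosen with earlier results of these data known. By that rule Ezh2 was named, with the 25 genes that rose most and the 25 that fell most, the 12 largest gains and losses in CPM, the 6 called members of each list (4 of each family) with the smallest adjusted p, the 2 most abundant members of each and members of counts of 5 or fewer. It gave 744 genes, of which the text describes a part; some genes are not reported here. Genes printed with promoters were chosen after their values were seen. Of 25655 identifiers 25600 were found in GENCODE M21 (GRCm38), the source of coordinates. Immunoglobulin and T cell receptor segments had 0 reads in all 486 entries, which says nothing of the cells. Figures were drawn with matplotlib 3.10.9.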

Additional observations from a re-analysis of the deposited data

How the results depend on the processing

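Against 1428 genes higher and 1274 lower at day 3, moderation without the level trend gave 947 and 433, DESeq2 927 and 577, and a 2-fold minimum 668 and 110; all 12 libraries in the fit gave 844 lower. Scaling by median-of-ratios or TMM gave 1531 and 1091 or 1540 and 1073, so the share of calls that were higher moved from 52.8% to 58.4% or 58.9%. Leaving out each library in turn gave 1081 to 1269 higher and 926 to 1022 lower at day 3, and 1337 to 1770 higher and 1663 to 2403 lower at day 5. At day 5 the 2-fold minimum gave 878 and 746, and DESeq2 1305 lower. The replicate number as a block gave 1441 and 1274. Deviations of same-numbered libraries from their group means had correlations of 0.0018, 0.038 and -0.013. Counting error pulls such correlations towards 0, so they do not settle whether the numbers pair libraries. The cause of the moves in the counts was not tested, except that the 2-fold minimum asks for larger changes by its construction. Of 744 named genes 412 stayed on their side of the threshold in every alternative run, and 1 changed sign, mt-Nd2, to -0.0763 under quantile normalization. Differences within counting error of a few reads were not detectable at this depth.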

Other observations

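Some transcripts varied between libraries of 1 genotype more than between genotypes and passed no test. Pagr1a was at 63.4, 34.9 and 72 CPM in WT and 57.7, 75.7 and 0 CPM in KO (log2 fold change -1.74 ± 0.85, adjusted p = 0.142). Derpc was at 9.48, 82 and 0.567 CPM in WT and 14.4, 96.8 and 62.4 CPM in KO (log2 fold change 2.04 ± 0.77, adjusted p = 0.0544). Gm6169 was at 39.1, 14.4 and 32.3 CPM in WT and 19.4, 0 and 26.8 CPM in KO (log2 fold change -1.73 ± 0.69, adjusted p = 0.0683). These 3 genes were chosen after their values were seen.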
